A study of Mus musculus with 32 samples.

Results

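Ribosome biogenesis factors are the proteins that make ribosomes but are not part of them, and 53 genes for such factors were followed here through the first cell cycles of the mouse embryo. The genes were taken from a fixed list of symbols set by known function. The list was chosen with earlier results of these data known, so it is not a blind set. All 53 were found among the 55385 genes of the expression tables. They were divided by step into 3 proteins of the box C/D snoRNP, 4 proteins of the H/ACA snoRNP, 6 nucleolar scaffold proteins and Pol I regulators, 19 factors of the small subunit and 21 factors of the large subunit.

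The embryos came from in vitro fertilization of B6D2F1/J oocytes with B6D2F1/J sperm, both from wild-type mice 6 to 8 weeks old. One experiment used A-485, an inhibitor of the acetyltransferases CBP and p300, at 10 μM from 4 to 20 h post-fertilization (hpi). Total RNA was sequenced at the zygote, the early 2-cell and the late 2-cell stage after culture with A-485 or with the solvent DMSO. Late 2-cell embryos were sampled after this window, when A-485 had been washed off. In the paper's staining the histone mark H3K27ac was back at the control level by then. Below, late 2-cell embryos "with A-485" are those treated earlier. The other experiment used trichostatin A (TSA), an inhibitor of histone deacetylases, at 50 nM from 8 to 28 hpi, and total RNA was sequenced in late 2-cell embryos cultured with TSA or with DMSO. Each of the 8 groups had 2 libraries, and the late 2-cell stage has separate DMSO groups for the 2 experiments. Open chromatin was measured by ATAC-seq at the late 1-cell and at the early 2-cell stage, with A-485 or DMSO, and each of these 4 groups has 1 peak list made from 2 replicates. How many embryos went into a library is not given in the sources used here. Fewer embryos or blastomeres that make an RNA and less of that RNA in each one cannot be told apart.

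Ribosomes are assembled in the nucleolus. RNA polymerase I transcribes a long precursor rRNA, the snoRNPs guide its chemical modification (box C/D particles add methyl groups to riboses, H/ACA particles turn uridines into pseudouridines), and large sets of factors then fold, cut and trim the precursor into the small and the large subunit. The oocyte passes on ribosomes and mRNA to the zygote. Much of the maternal mRNA is degraded while the embryonic genome is activated, in a minor wave that reaches the early 2-cell stage and a major wave at the late 2-cell stage, and genes for ribosome production are known to be among those transcribed in the major wave.

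The promoters of 3 members that were lower at the early 2-cell stage after A-485 are shown. Nop2 and Nop16 had the largest falls of the members described in full that kept a promoter peak after A-485, and Tsr1 had the largest fall of those that did not keep one. A promoter ATAC peak covered all 250 printed bases of each in DMSO early 2-cell embryos. For Nop2 and Nop16 a promoter peak was also listed after A-485, and for Tsr1 none was. The sequences are the 250 bases before the RefSeq start (build GRCm38.p6), on the strand of the gene, with matches to the searched motifs in capitals.
Nop2, chr6:125131633-125131882, + strand: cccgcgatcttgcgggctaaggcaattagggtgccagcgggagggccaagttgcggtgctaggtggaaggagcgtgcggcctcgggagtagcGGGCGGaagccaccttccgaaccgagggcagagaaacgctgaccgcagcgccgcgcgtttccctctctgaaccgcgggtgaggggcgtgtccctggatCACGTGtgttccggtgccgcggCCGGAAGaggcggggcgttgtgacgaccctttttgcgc
Nop16, chr13:54590075-54590324, - strand: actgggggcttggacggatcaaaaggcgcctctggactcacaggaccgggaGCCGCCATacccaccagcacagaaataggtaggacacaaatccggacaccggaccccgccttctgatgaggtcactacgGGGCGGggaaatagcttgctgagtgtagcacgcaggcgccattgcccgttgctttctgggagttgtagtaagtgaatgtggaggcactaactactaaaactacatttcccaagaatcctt
Tsr1, chr11:74897830-74898079, + strand: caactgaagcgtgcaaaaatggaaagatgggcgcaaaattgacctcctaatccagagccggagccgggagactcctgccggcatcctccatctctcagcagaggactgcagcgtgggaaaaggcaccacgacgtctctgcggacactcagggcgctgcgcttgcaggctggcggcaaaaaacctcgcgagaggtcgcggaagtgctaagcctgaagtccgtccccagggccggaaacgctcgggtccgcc

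In the Nop2 promoter the capitals mark, in order, an SP/KLF box at -158, an E-box at -60 and an ETS motif at -38 from the start. In the Nop16 promoter they mark a YY1 motif at -199 and an SP/KLF box at -120, and the printed Tsr1 bases hold none of the searched letters, since its E-box, ETS, SP/KLF and YY1 matches lie in or run into the 50 bases after the start. The motifs were searched on both strands in the 300-base windows from 250 bases before to 50 after each start, over 55 windows that belong to 46 of the members and over all 32851 windows of the same length. The ETS motif (CCGGAAG) was in 36.4% of the members' windows and 8.86% of all windows, the E-box (CACGTG) in 20.0% and 7.15%, the SP/KLF box (GGGCGG) in 67.3% and 35.7%, and the YY1 motif (ATGGCGGC) in 10.9% and 2.24%. The NRF1 motif (GCATGCGC) was in 5.45% of the members' windows and 2.71% of all windows, while the NF-Y box (CCAAT) was in 32.7% and 37.4%. Over the 11434 windows of genes whose mean FPKM reached 1 at the early 2-cell stage, the shares were 17.3% for ETS, 9.71% for the E-box, 59.9% for SP/KLF, 4.71% for YY1, 5.32% for NRF1 and 39.2% for NF-Y. The members' shares of ETS, E-box and YY1 letters were thus above those of the expressed genes too, while their shares of SP/KLF and NRF1 letters were close to them. A match describes letters and not a bound site.

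The RNA libraries held 13206163 to 32585987 expected counts assigned to genes, and the 2 late 2-cell A-485 libraries were the shallowest. FPKM below is the deposited level per gene length and library total. Fold changes come from edgeR on counts with TMM scaling. They differ from ratios of FPKM, which also follow the library total and the mix of isoforms, and in some members the gap is large. Mdn1 was 11.6-fold lower with TSA in the fit, while its mean FPKM went from 34 to 7.25. Emg1 was 4.1-fold lower with A-485 at the late 2-cell stage, while its mean FPKM went from 28.2 to 3.75. A member was called when the adjusted p was under 0.05, the change at least 2-fold and the mean FPKM at least 1 in either group. The 10 oocyte and zygote markers and the 10 2-cell markers were all detected at FPKM of at least 1 in DMSO early and late 2-cell embryos. Of the other cell types that could be carried along, cumulus cell markers summed to at most 6.66 FPKM in any library and sperm markers to at most 18.9. Fibroblast markers summed to at most 2.04 FPKM outside the late 2-cell treated groups, but to 14.3 and 16.7 with A-485, nearly all of it Pdgfra, and to 9.7 and 10.8 with TSA, mostly Pdgfra (5.43 and 3.63), Thy1 (2.72 and 4.19) and Col1a1 (2.63 and 1.74). Of the 7 fibroblast markers Lum was at 0 in every library. Erythroid markers summed to at most 3.57 FPKM in other groups and to 7.24 and 9.84 with TSA, mostly Hba-a1, with Hbb-bs at 0 in every library. The part of these cells in the results was not tested.

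In DMSO embryos the messages for ribosome biogenesis factors went down and then up. The median FPKM of the 53 members was 23.1 and 22.6 in the 2 zygote libraries, 13.4 and 10.6 in the early 2-cell libraries and 50.3 and 51.5 in the late 2-cell libraries. Together the members took 0.701% and 0.779% of all counts in zygotes, 0.266% and 0.263% at the early 2-cell stage and 0.807% and 0.786% at the late 2-cell stage. The heat map of levels in each library shows this dip for most rows.

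**Figure D1:**
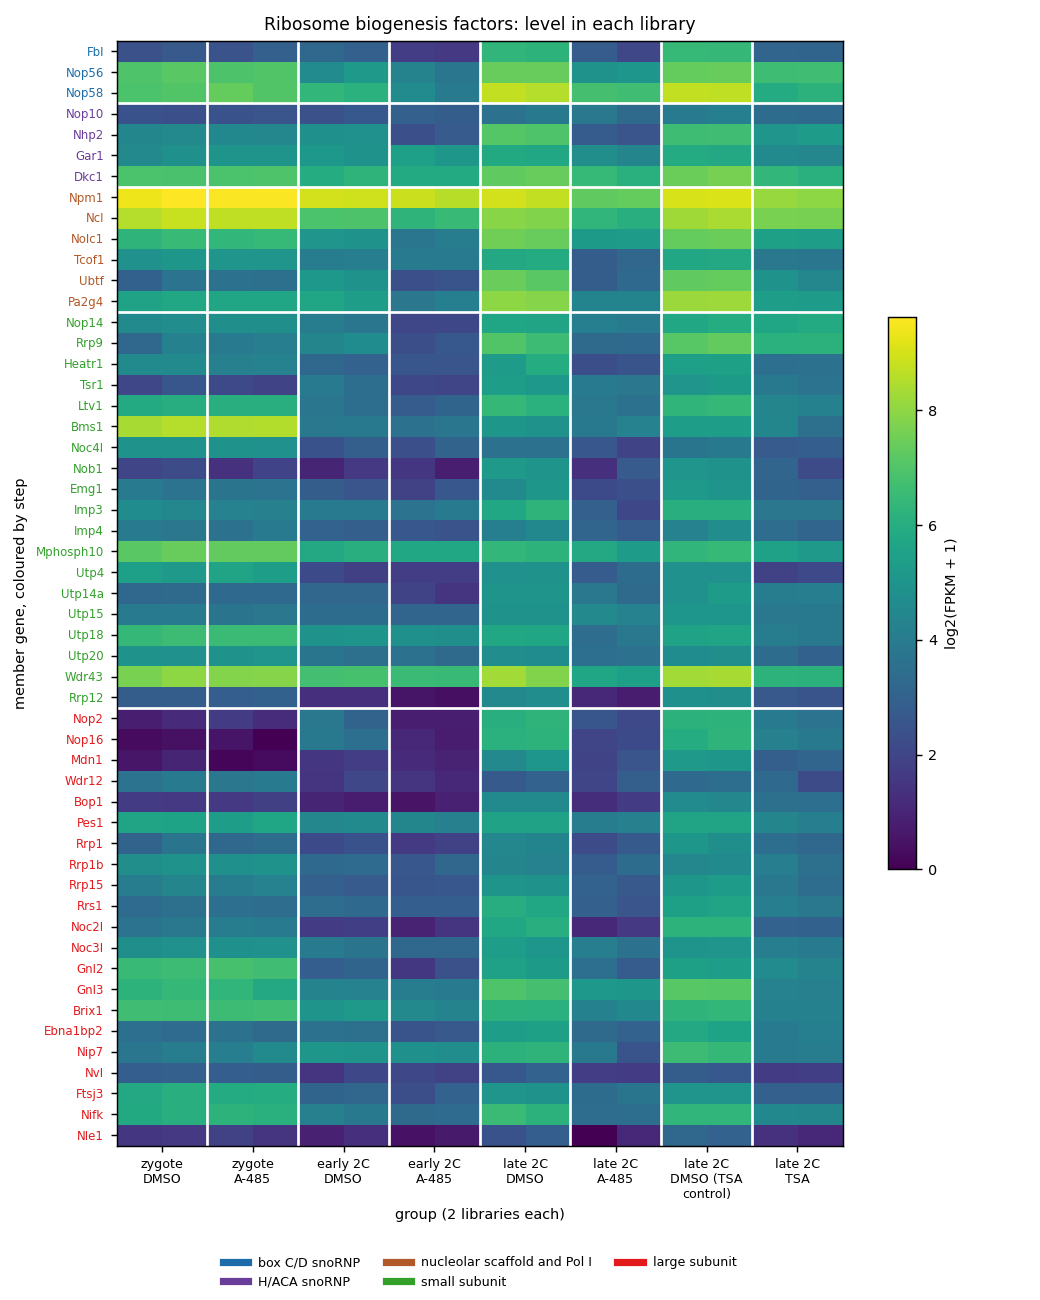
Level of each of the 53 members in each of the 16 RNA libraries, as log2(FPKM + 1), with rows grouped and coloured by step and 2 libraries for each group. The late 2-cell DMSO columns are brighter than the A-485 and TSA columns beside them in nearly every row, and the zygote A-485 columns look like the zygote DMSO columns.

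Between the zygote and the early 2-cell stage, 25 of 53 members were called lower in DMSO embryos, where 22.5% of the 13353 genes tested at this FPKM were, and 6 were called higher, where 16.9% were. The median change was -0.98 on the log2 scale for the members and -0.12 for all these genes. Of the large subunit factors 13 of 21 were lower, of the small subunit factors 9 of 19, of the scaffold and Pol I group 2 of 6, of the box C/D proteins 1 of 3 and of the H/ACA proteins 0 of 4.

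Bms1, a GTPase of the small subunit processome, fell most. Its FPKM was 332 and 377 in zygotes and 13.4 and 13.7 at the early 2-cell stage (log2 fold change -4.62 ± 0.0894 SE, adjusted p = 3.13e-12). Gnl2, a GTPase that acts on the large subunit, went from 91.3 and 97.4 to 6.29 and 7.51 (-3.82 ± 0.133, adjusted p = 1.26e-10). Both genes were well above most members in zygotes and far below their zygote level one stage later. Utp4, of the t-UTP subcomplex that binds the nascent precursor rRNA, went from 41.8 and 35.9 to 3.50 and 2.55 (-3.44 ± 0.173, adjusted p = 3.45e-09).

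The 3 largest rises were in members with very little message in the zygote. Nop16, a large subunit factor, was at 0.22 and 0.35 FPKM in zygotes and at 13.8 and 10.6 at the early 2-cell stage (5.97 ± 0.421, adjusted p = 8.46e-08). Nop2, which methylates a cytosine of the large rRNA, was at 0.76 and 1.19 and then at 13.5 and 7.34 (3.32 ± 0.306, adjusted p = 1.07e-06). Mdn1, the very large AAA ATPase that strips factors from pre-60S particles, rose from 0.49 and 0.99 to 1.84 and 2.32 (2.40 ± 0.238, adjusted p = 2.13e-06). The other 3 were Ubtf, the Pol I transcription factor UBF, with 2.07, Tsr1 with 1.69 and Nip7 with 1.01. With counts scaled to the mitochondrial genome instead of by TMM, the median of all genes was -1.45, 3 members were higher and 44 lower. Under that scaling Nip7 turned to -0.32 and Ubtf (0.72) and Tsr1 (0.34) were no longer called.

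From the early to the late 2-cell stage, 45 of 53 members were called higher in DMSO embryos and none lower, where 23.6% of the 13727 genes were called higher. The median change was 2.13 for the members and 0.03 for all genes. All 3 box C/D proteins, 3 of 4 H/ACA proteins, 4 of 6 scaffold and Pol I genes, 16 of 19 small subunit factors and 19 of 21 large subunit factors rose. With the DMSO late 2-cell group of the TSA experiment as the end point, 50 of 53 were called higher, where 4077 of 13986 genes were.

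Noc2l, which escorts pre-60S particles out of the nucleolus, had the largest rise, from 2.29 and 2.49 FPKM to 52.6 and 66.1 (4.89 ± 0.191, adjusted p = 2.1e-08). Bop1, of the PeBoW complex with Pes1 and Wdr12, went from 1.01 and 0.68 to 23.0 and 23.1 (4.77 ± 0.279, adjusted p = 1.35e-07). Mdn1 went from 1.84 and 2.32 to 22.4 and 32.7 (4.58 ± 0.136, adjusted p = 5.9e-09). In each of the 3 genes all late libraries lay far above all early ones. At the other end, the nucleolar chaperone Npm1, the most abundant member, was at 501 and 483 and then at 495 and 434 (-0.08 ± 0.0966, adjusted p = 0.56), and the small subunit factor Mphosph10 changed by 0.35 (adjusted p = 0.0542). The 2 stage comparisons share the early 2-cell DMSO libraries with each other and all their libraries with the A-485 comparisons.

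**Figure D2:**
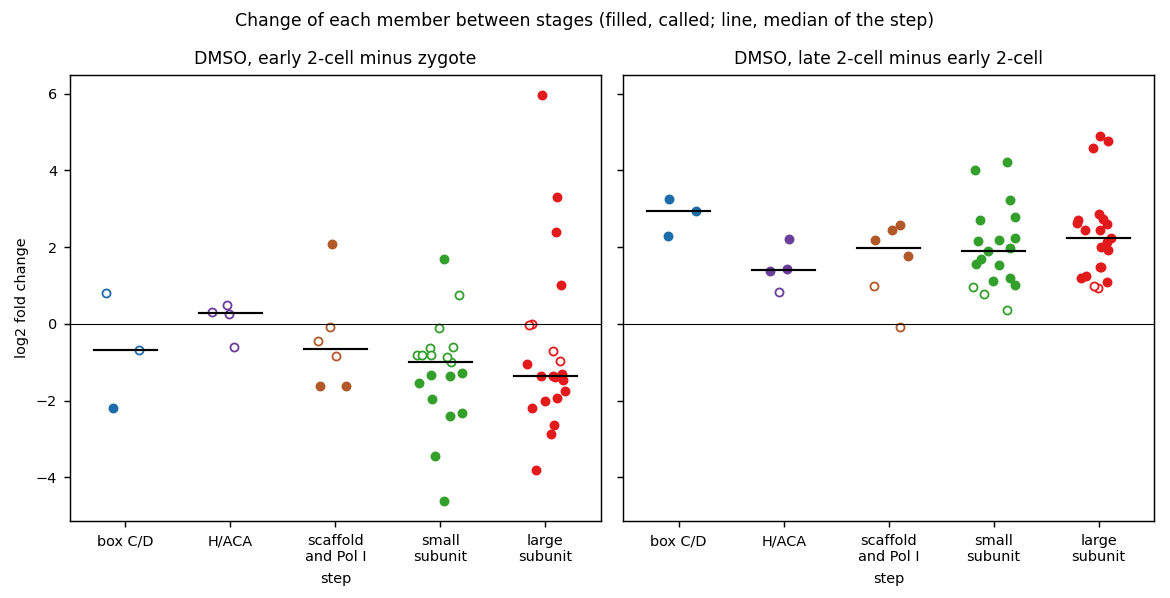
Log2 fold change of each member between stages in DMSO embryos, by step, with filled points for called members, open points for the others, a line for the median of each step and horizontal scatter within a step for legibility only. Points lie on both sides of 0 from zygote to early 2-cell, with Nop16 at 5.97 and Bms1 at -4.62, and all but Npm1 (-0.08) lie above 0 from early to late 2-cell.

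In zygotes A-485 left no called difference in any member. The median change was 0.03 for the members and 0.01 for all genes, the members ranged from -0.62 to 0.42, and the lowest adjusted p was 0.83. In edgeR 3 members had an unadjusted p under 0.05, and in DESeq2 2 did and none passed adjustment. Only 13 of 11922 genes (0.109%) were called in either direction, so few genes of any kind differed.

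At the early 2-cell stage A-485 lowered a subset of the members. Of the 53, 15 were called lower and none higher, where 12.7% of 12977 genes were called lower, and 25 had an adjusted p under 0.05 and were lower, where 15.6% of genes did. The median change was -0.54 for the members and -0.01 for all genes. By step 2 of 3 box C/D proteins, 1 of 4 H/ACA proteins, 2 of 6 scaffold and Pol I genes, 5 of 19 small subunit factors and 5 of 21 large subunit factors were called lower. The 10 2-cell markers summed to 584 to 677 FPKM in DMSO and 67.8 to 74.2 with A-485 at this stage, and their part in the members' fall was not tested.

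Among the snoRNP proteins, Nop58, a core protein of box C/D particles, was at 81.1 and 70.6 FPKM in DMSO and 23.9 and 14.3 with A-485 (log2 fold change -1.91 ± 0.177, adjusted p = 1.03e-05). Fbl, the box C/D methyltransferase fibrillarin, was at 8.32 and 6.83 and at 2.36 and 1.99 (-1.48 ± 0.324, adjusted p = 0.00929), and without the first DMSO library its adjusted p was 0.0594. Nhp2, an H/ACA core protein, was at 27.4 and 28.5 and at 4.13 and 5.76 (-2.47 ± 0.228, adjusted p = 1e-05). In all 3 genes both A-485 libraries lay below both DMSO libraries. The other H/ACA proteins did not follow Nhp2: Gar1 was at 33.7 and 30.2 and at 42.3 and 33.1 (0.31, adjusted p = 0.366), Nop10 changed by 0.47 (adjusted p = 0.382), and the pseudouridine synthase Dkc1 fell by 0.53 (adjusted p = 0.00566), under 2-fold.

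Of the genes tied to Pol I, Ubtf was at 33.7 and 28.8 FPKM in DMSO and 4.12 and 4.61 with A-485 (-2.69 ± 0.168, adjusted p = 2.82e-07). Pa2g4, a nucleolar protein linked to growth control, was at 49.1 and 40.0 and at 13.1 and 16.8 (-1.54 ± 0.143, adjusted p = 1.02e-05). Npm1 was at 501 and 483 and at 469 and 382, and its change of -0.20 ± 0.0901 did not pass (adjusted p = 0.201). Ncl, the nucleolin gene, and Nolc1, a chaperone of snoRNPs, passed but changed by less than 2-fold (-0.46, adjusted p = 0.00157, and -0.97, adjusted p = 0.000155). With A-485 the Ubtf libraries lay below its zygote levels of 6.89 and 11.8.

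Among small subunit factors the largest falls were in Rrp9, a protein of the U3 snoRNP, with 20.0 and 24.6 FPKM in DMSO and 3.96 and 5.29 with A-485 (-2.19 ± 0.258, adjusted p = 8.18e-05), and in Tsr1, a late assembly factor, with 14.5 and 10.1 and then 3.29 and 3.00 (-2.03 ± 0.191, adjusted p = 1.16e-05). Nop14, Rrp12 and Utp14a were the others called, with -2.02, -1.88 and -1.74. Wdr43, the most abundant small subunit factor over all libraries, was at 106 and 114 and at 94.7 and 92.1 (-0.28 ± 0.083, adjusted p = 0.0483), a change under 2-fold.

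Among large subunit factors Nop2 was at 13.5 and 7.34 FPKM in DMSO and 0.77 and 0.76 with A-485 (-3.90 ± 0.305, adjusted p = 2.2e-06). Nop16 was at 13.8 and 10.6 and at 1.16 and 0.71 (-3.36 ± 0.383, adjusted p = 6.34e-05). These were the 2 largest falls of the 53 at this stage. Ebna1bp2, Gnl2 and Mdn1 were also called, with -1.40, -1.37 and -1.15, and Gnl2 had an adjusted p of 0.0678 without the first A-485 library. Gnl3, the GTPase nucleostemin and the most abundant large subunit factor over all libraries, was at 18.9 and 18.1 and at 15.7 and 14.4 (-0.19 ± 0.196, adjusted p = 0.619).

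Of the 6 members that had risen from zygote to early 2-cell in DMSO embryos, the A-485 change was -3.36 for Nop16, -3.90 for Nop2, -1.15 for Mdn1, -2.69 for Ubtf, -2.03 for Tsr1 and -0.06 for Nip7. The changes with A-485 in the 3 members that had fallen most were -0.19 for Bms1, -1.37 for Gnl2 and -0.48 for Utp4. The same DMSO libraries enter both comparisons, so the values stand side by side without a test of their relation.

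At the late 2-cell stage nearly every member was lower after A-485. Of the 53, 51 were called lower and none higher, where 23.8% of 16062 genes were called lower. The median change was -2.43 for the members and 0.02 for all genes. All 3 box C/D proteins, 3 of 4 H/ACA proteins, all 6 scaffold and Pol I genes, all 19 small subunit factors and 20 of 21 large subunit factors were called. The exceptions were Nop10, at 11.3 and 13.7 FPKM in DMSO and 13.4 and 9.11 with A-485 (-0.36 ± 0.327, adjusted p = 0.407), and Wdr12, at 5.63 and 7.15 and at 3.02 and 6.60 (-0.05 ± 0.236, adjusted p = 0.882). The members' share of all counts was 0.807% and 0.786% in DMSO and 0.181% and 0.173% with A-485.

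Other features of the late 2-cell A-485 libraries moved with this result. The 13 mitochondrially encoded protein genes took 5.43% and 5.35% of counts with A-485 and 2.44% and 2.35% in DMSO, and the 10 oocyte and zygote markers summed to 1464 to 1489 FPKM with A-485 and 806 to 868 in DMSO. Most of that rise was in Bmp15 (147 and 161 in DMSO, 408 and 415 with A-485) and Oosp1 (450 and 465, 780 and 794), while Zp3 (15.5 and 20.4, 12.2 and 10.2) was lower. The 10 2-cell markers summed to 117 to 131 with A-485 and 680 to 686 in DMSO. Their part in the members' fall was not tested. Scaling to the mitochondrial genome put the median of all genes at -0.96 and the members' median to -3.40.

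Fbl was at 79.5 and 73.8 FPKM in DMSO and 6.04 and 3.14 with A-485 (log2 fold change -3.72 ± 0.336, adjusted p = 3.1e-06). Nop56, the other core protein beside Nop58, was at 168 and 165 and at 29.6 and 32.6 (-2.83 ± 0.136, adjusted p = 2.18e-08), and Nop58 at 432 and 376 and at 110 and 102 (-2.06 ± 0.148, adjusted p = 4.43e-07). Nop58 was the most abundant of the snoRNP proteins and kept the highest level of the 3 box C/D genes with A-485. Nhp2 fell from 136 and 126 to 6.02 and 4.77 (-4.90 ± 0.209, adjusted p = 1.08e-08), and Dkc1 from 155 and 169 to 85.9 and 68.7 (-1.81 ± 0.143, adjusted p = 1e-06). The groups did not overlap in any of these genes.

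Ubtf was at 170 and 144 FPKM in DMSO and 6.08 and 8.79 with A-485 (-4.44 ± 0.141, adjusted p = 3.98e-09). Pa2g4 was at 253 and 236 and at 19.5 and 19.2 (-3.88 ± 0.124, adjusted p = 3.98e-09). Npm1 was at 495 and 434 and at 156 and 163 (-1.77 ± 0.111, adjusted p = 1.37e-07). Among the scaffold genes the A-485 change ran from -1.59 in Ncl to that of Ubtf.

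The largest falls of small subunit factors were in Rrp12, which acts in export of both subunits, at 22.4 and 25.2 FPKM in DMSO and 1.12 and 0.67 with A-485 (-4.94 ± 0.249, adjusted p = 2.95e-08), and in Rrp9, at 127 and 96.6 and at 9.01 and 8.79 (-4.77 ± 0.194, adjusted p = 8.88e-09). The smallest called changes were -1.04 in Utp15 and -1.15 in Bms1; both fell under 2-fold when counts were scaled to library totals, to -0.85 and -0.95, with adjusted p of 0.000418 and 0.000536. Wdr43 was at 310 and 223 and at 49.3 and 42.7 (-2.66 ± 0.164, adjusted p = 1.21e-07).

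In the large subunit group Noc2l had the largest fall of all members, from 52.6 and 66.1 FPKM to 1.08 and 2.06 (-5.46 ± 0.277, adjusted p = 3.06e-08). Nop2 went from 64.5 and 76.7 to 4.98 and 3.37 (-4.94 ± 0.174, adjusted p = 4.57e-09). Gnl3 went from 126 and 109 to 34.2 and 33.5 (-1.92 ± 0.139, adjusted p = 4.79e-07). Noc2l and Nop2 thus ended below 5 FPKM while Gnl3 stayed above 30.

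TSA gave a fall of like breadth at the late 2-cell stage. Of the 53, 51 were called lower and none higher, where 20.2% of 16048 genes were called lower, and all 53 had an adjusted p under 0.05. The median change was -2.00 for the members and -0.03 for all genes. The 2 under 2-fold were Wdr12 (-0.57, adjusted p = 0.00989) and Nop14 (-0.61, adjusted p = 0.000366), and the FPKM of Nop14 was 51.8 and 61.3 in DMSO and 50.8 and 58.1 with TSA, so the difference in Nop14 is one of scaled counts and hardly shows in FPKM. The members' share of all counts was 0.870% and 0.895% in DMSO and 0.296% and 0.275% with TSA. Mitochondrially encoded genes took 3.66% and 3.72% with TSA and 2.71% and 2.39% in DMSO. The 2-cell markers summed to 619 to 718 FPKM with TSA and 529 to 584 in DMSO, but single markers went both ways. Zfp352, Zscan4c, Zscan4d, Usp17la, Usp17lc, Usp17ld and Tdpoz4 were higher in both TSA libraries than in both DMSO libraries. Obox3 and Sp110 were lower in both TSA libraries, and the groups overlapped in Eif1a. The part of the mitochondrial share and of these markers in the result was not tested. Scaling to library totals moved the median of all genes to 0.32 and the members' median to -1.64, and it left 47 called, with Nop56, Nop10, Ncl and Rrp1b between -0.72 and -0.95.

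Fbl was at 87.0 and 84.9 FPKM in DMSO and 7.91 and 7.51 with TSA (-3.86 ± 0.121, adjusted p = 5.83e-09), and Nop58 at 427 and 420 and at 59.7 and 72.4 (-3.04 ± 0.099, adjusted p = 6.72e-09). Nhp2 was at 98.1 and 102 and at 31.6 and 37.8 (-1.91 ± 0.123, adjusted p = 4.68e-07), and Gar1 at 60.1 and 54.9 and at 22.9 and 21.2 (-1.75 ± 0.159, adjusted p = 6.48e-06). Within the H/ACA group the 4 proteins lay close together, from -1.91 to -1.16.

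Pa2g4 was at 286 and 297 FPKM in DMSO and 39.8 and 37.6 with TSA (-3.28 ± 0.0677, adjusted p = 1.11e-09), and Ubtf at 154 and 161 and at 28.8 and 21 (-2.96 ± 0.0826, adjusted p = 3.01e-09). Npm1 was at 525 and 545 and at 282 and 257 (-1.41 ± 0.0649, adjusted p = 4.17e-08). The order of the 3 genes by change differed from that with A-485, where Ubtf came first.

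Among small subunit factors TSA lowered Utp4 most, from 28.1 in both libraries to 2.7 and 3.35 FPKM (-3.64 ± 0.186, adjusted p = 8.83e-08), followed by Nob1, the endonuclease that cuts the end of the small subunit rRNA, from 31.4 and 29.1 to 7.90 and 3.59 (-3.53 ± 0.194, adjusted p = 1.52e-07). Among large subunit factors it lowered Noc2l most, from 73.7 and 74.7 to 7.15 and 6.92 (-3.86 ± 0.104, adjusted p = 2.81e-09), followed by Mdn1, from 34.9 and 33.2 to 6.60 and 7.91 (-3.54 ± 0.0812, adjusted p = 1.64e-09). The groups did not overlap in any of these genes.

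**Figure D3:**
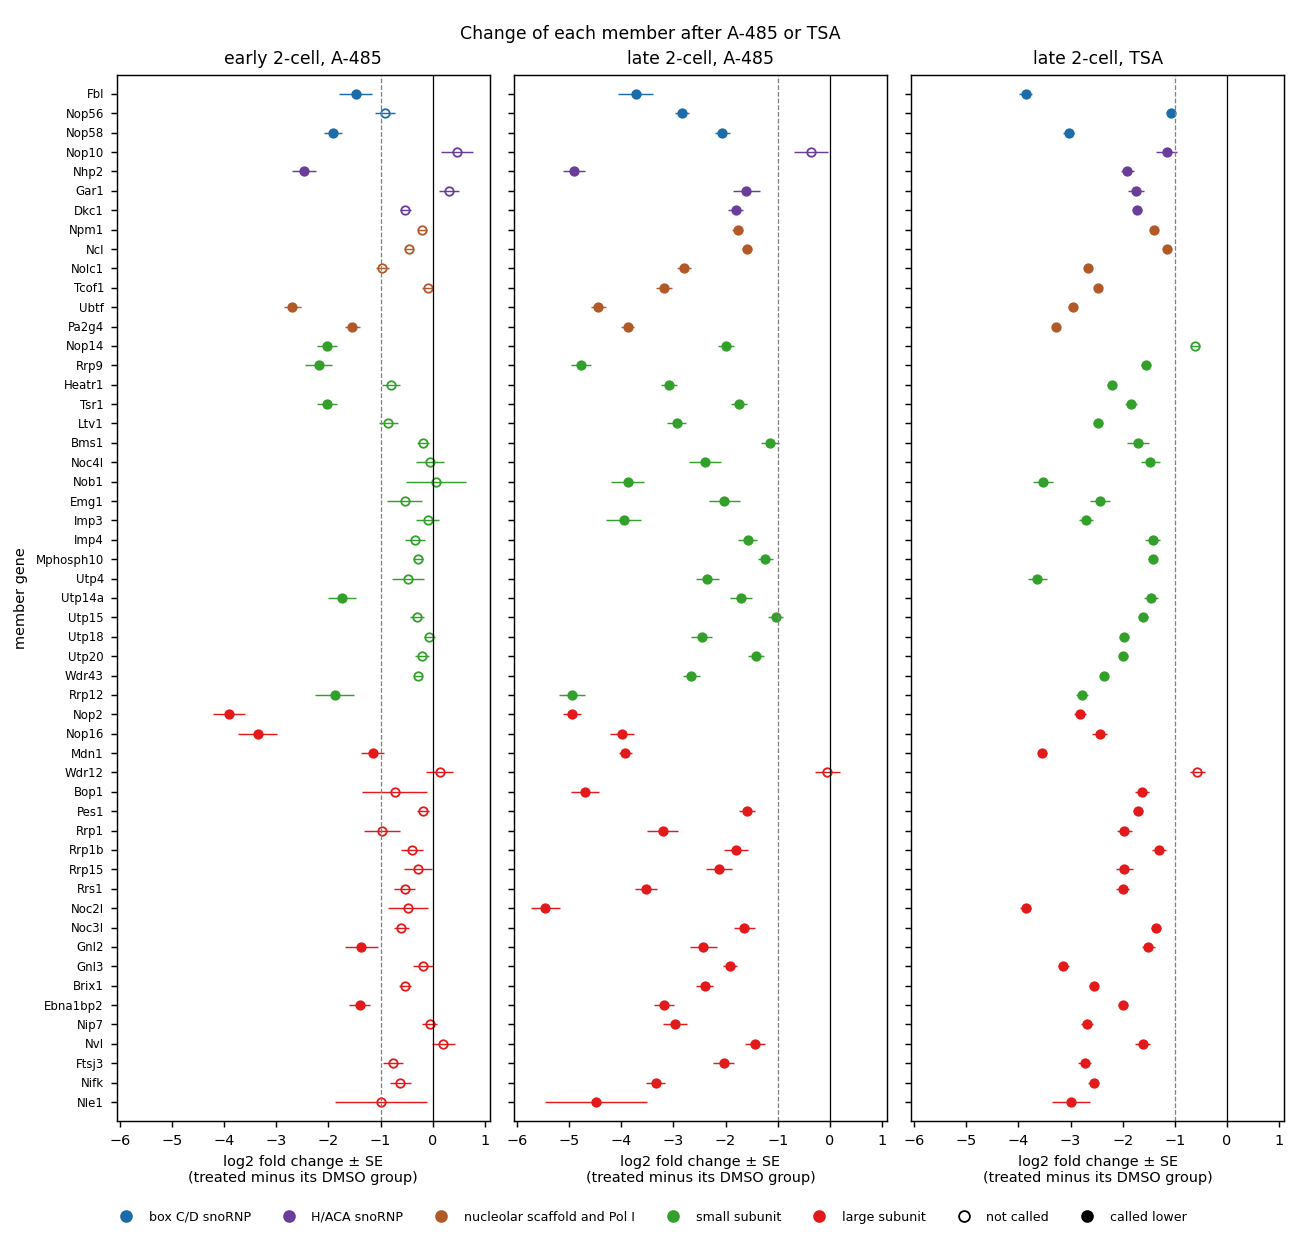
Log2 fold change of each member, with its SE, after A-485 at the early 2-cell stage, after A-485 at the late 2-cell stage and after TSA at the late 2-cell stage, each against its own DMSO group of 2 libraries. Filled points are called lower (15, 51 and 51 of 53), open points are not called, and the dashed line marks a 2-fold fall.

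**Figure D4:**
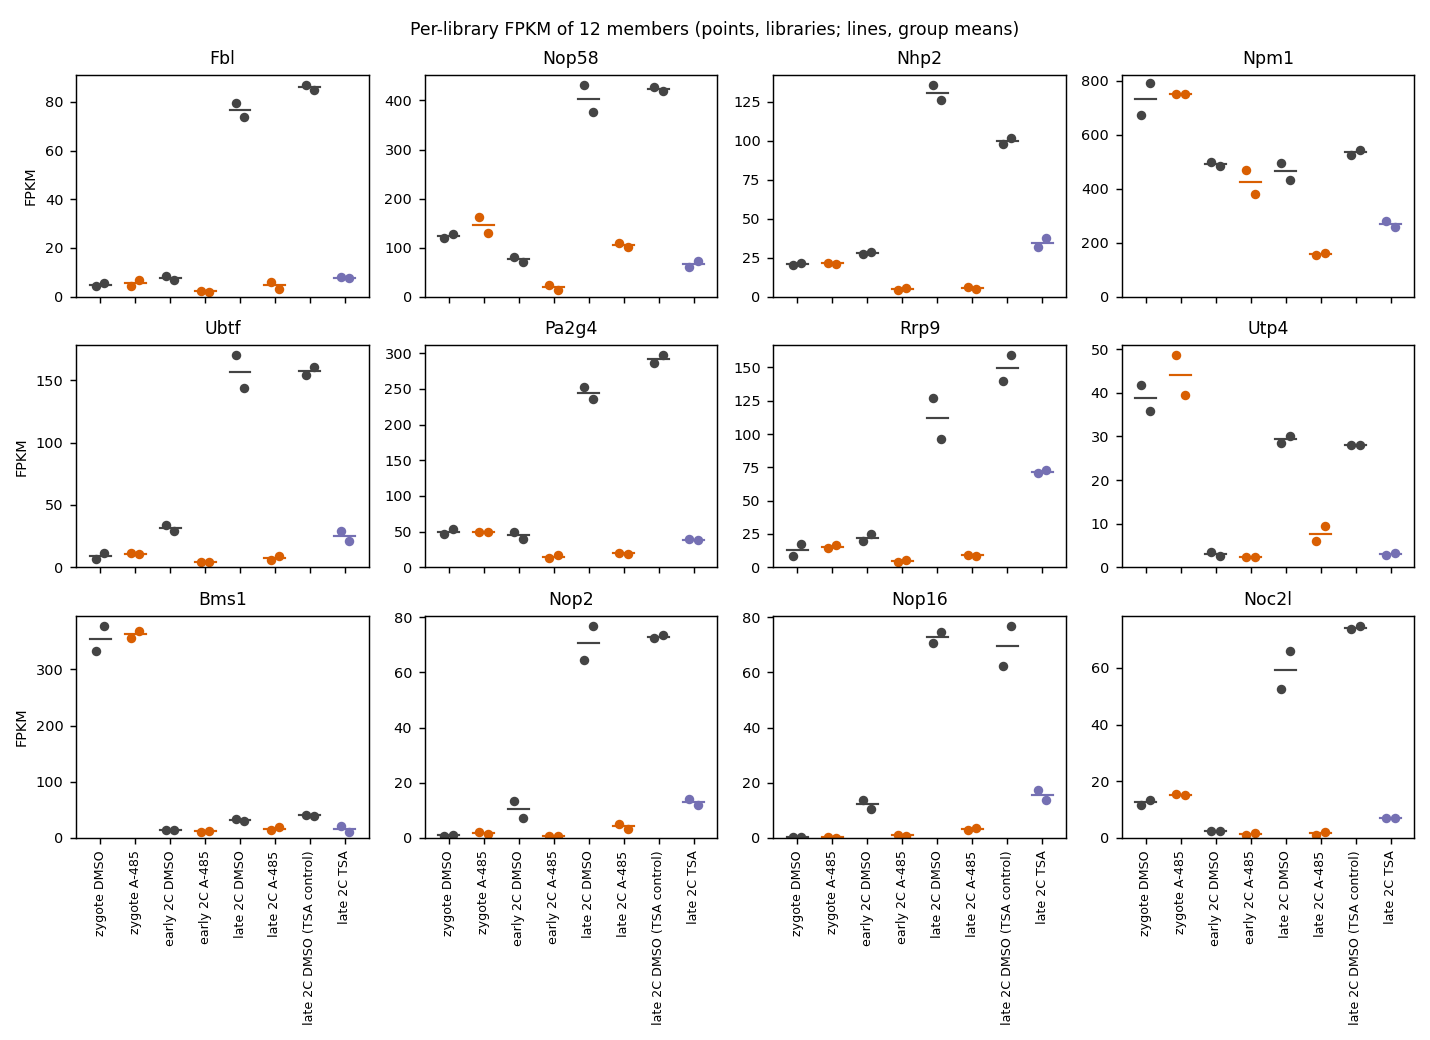
FPKM of 12 members in every library, with a line at each group mean and A-485 in orange, TSA in purple and DMSO in grey, on linear axes from 0. Fbl, Nhp2, Ubtf, Rrp9, Nop2, Nop16 and Noc2l are far higher at the late 2-cell stage in DMSO than with A-485, where all 7 have group means below 9 FPKM, while Bms1 is high in zygotes alone and Npm1 is lowest in the treated late 2-cell groups.

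Set against the earlier stage, the members' late 2-cell levels after either inhibitor were near those of early 2-cell DMSO embryos in the median only. Single members lay far off in both directions. With A-485 the mean FPKM of Nhp2 was 5.39 against 28 in early 2-cell DMSO embryos, and that of Utp15 was 20.3 against 9.59. With TSA Nop14 was at 54.5 against 14.1 and Utp18 at 14.8 against 29.8. The ratio of late to early 2-cell means within A-485 embryos had a median of 1.43 for the members and 1.27 for all genes. The median ratio of a member's mean FPKM to its mean in early 2-cell DMSO embryos was 4.44 in late 2-cell DMSO embryos, 0.785 with A-485 and 1.25 with TSA, where the medians over all genes were 1.03, 1.08 and 1.27. Against zygote DMSO embryos the members' ratios were 2.00, 0.364 and 0.566. These ratios describe levels and were not tested.

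The effect of A-485 on the members was tested directly between the stages with an interaction term. In 44 of 53 members the change was more negative at the late than at the early 2-cell stage and in none less negative, where 14.8% of 16731 genes were more negative, with a median of -1.75 for the members and 0.22 for all genes. The difference was -4.91 ± 0.385 in Noc2l (adjusted p = 8.49e-10), -3.89 in Bop1, -3.84 in Nob1, -3.77 in Imp3, a U3 snoRNP protein, and -2.99 in Tcof1, the nucleolar protein treacle. In DMSO early 2-cell embryos the mean FPKM was 2.39 for Noc2l, 0.845 for Bop1 and 1.5 for Nob1. These genes had little message at the early stage, while Imp3 was at 14.2 and Tcof1 at 16.3. The part of these levels in the differences was not tested. Several genes that had already fallen at the early 2-cell stage showed no such difference, namely Nop58 (-0.07 ± 0.214, adjusted p = 0.929), Nop14 (0.11), Utp14a (0.11), Tsr1 (0.37) and Nop16 (-0.55, adjusted p = 0.416). Nop10, Wdr12, Gnl2 and Nle1 did not pass either. The other members called lower at the early 2-cell stage, such as Fbl, Nhp2, Ubtf, Rrp9 and Nop2, did pass. With counts scaled to the mitochondrial genome, the median difference was -2.81 for the members and -0.83 for all genes. The differences near 0 given here thus hold under TMM scaling.

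The 2 inhibitors were compared at the late 2-cell stage, each against its own DMSO group. The DMSO groups themselves differed in none of the 53 members by these cutoffs, where 2.02% of 13485 genes differed; 13 members had an unadjusted p under 0.05 in edgeR and 11 in DESeq2, and by adjusted p alone 1 differed in each tool, in edgeR Ncl (0.39 ± 0.0814, adjusted p = 0.026). The change was more negative with A-485 than with TSA in 23 members, where 18.2% of 18257 genes were, and less negative in 3, where 6.27% were. The median difference was -0.47 for the members and -0.10 for all genes. Doses, windows and targets of the inhibitors differ, and the comparison describes these 2 treatments as given.

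By fitted fold change, though not by ratios of mean FPKM, Rrp9 differed most between the inhibitors, with -4.77 after A-485 and -1.56 after TSA (difference -3.33 ± 0.194, adjusted p = 1.55e-09). Bop1 changed by -4.70 and -1.63 (difference -3.18 ± 0.274, adjusted p = 1.69e-07), and Nhp2 by -4.90 and -1.91 (-3.10 ± 0.231, adjusted p = 2.85e-08). Rrp12 and Nop2 followed with differences of -2.27 and -2.23. The 3 members lowered more by TSA were Utp4 (1.18 ± 0.286, adjusted p = 0.00697), Gnl3 (1.11 ± 0.17, adjusted p = 0.000131) and Nop58 (0.88 ± 0.18, adjusted p = 0.00196). Fbl, in contrast, fell by 3.72 and 3.86, a difference of 0.03 ± 0.357 that did not pass. When counts were scaled to the mitochondrial genome, the median of all genes was -0.79, and 39 members were more negative with A-485 and none passed as less negative, so the calls for Utp4, Gnl3 and Nop58 depend on the scaling.

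Other genes of the same pathway were counted in 5 lists made beside the members, where 12.7% of all genes were called lower after A-485 at the early 2-cell stage, 23.8% at the late 2-cell stage and 20.2% after TSA. Of the 32 other small subunit factors A-485 lowered 6 at the early and 28 at the late 2-cell stage and TSA 25, and of the 33 other large subunit factors it lowered 14 and 27 and TSA 28. Of 14 genes for Pol I and its factors 6, 14 and 13 were called lower, of 11 snoRNP assembly genes 5, 8 and 8, and of 13 exosome and nuclease genes 3, 7 and 7. No gene of these lists was called higher in the 3 comparisons, and among those not called at the late 2-cell stage the changes reached 0.32 in Exosc7 after A-485 (adjusted p = 0.614) and 0.32 in Exosc2 after TSA (adjusted p = 0.121). The exosome and nuclease list had the smallest median changes, -0.32, -1.11 and -1.14, and the snoRNP assembly list had -0.84, -3.20 and -2.20.

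The gene of each list with the lowest adjusted p at the early 2-cell stage is given here. Zfp622, whose yeast relative acts late on the large subunit, was at 39.9 and 32.0 FPKM in DMSO and 0.12 and 0.46 with A-485 (-6.24 ± 0.297, adjusted p = 2.2e-08). Znhit3, which helps assemble box C/D particles, was at 28.8 and 20.1 and at 1.35 and 1.48 (-4.44 ± 0.33, adjusted p = 1.42e-06), and it stayed low at the late 2-cell stage, at 1.68 and 2.88 against 87.5 and 71.5. C1d, a cofactor of the nuclear exosome, changed by -3.09 ± 0.253 (adjusted p = 3.23e-06), and after TSA at the late 2-cell stage by -0.07 (adjusted p = 0.737). Nol11, of the t-UTP complex, changed by -2.68 and Taf1d, of the Pol I selectivity factor, by -1.25.

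Promoter chromatin was read from the ATAC peak lists. A peak within 1 kb of an annotated transcript start was listed for 35 of 53 members in DMSO late 1-cell embryos, where 37.8% of the 12961 genes with a mean FPKM of 1 or more at the early 2-cell stage had one, and for 31 after A-485, where 36.5% did. At the early 2-cell stage 44 members had one in DMSO, where 47.6% of genes did, and 43 after A-485, where 57.2% did. There is 1 list for each group and no replicate check. For 20 of the 44 members the peak also lay within 1 kb of the start of another gene, as for Nop14 with Grk4 and Gnl3 with Pbrm1, and cannot be assigned to one of the pair.

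In 27 members a promoter peak was in all 4 lists and in 3, Ubtf, Noc2l and Nip7, in none. All 3 box C/D genes had a peak in all 4 lists. Of the 44 members with a peak in DMSO early 2-cell embryos, 37 (84.1%) also had one after A-485, where 83.9% of 6173 genes did. The 7 without one after A-485 were Tsr1, Noc4l, Imp3, Rrp12, Mdn1, Nvl and Nle1. A peak after A-485 need not be the peak of the DMSO list. At Nop58 and Ltv1 the strongest peaks of the 2 early 2-cell lists did not overlap. The Gnl2 peaks lay near other annotated starts and not at the 5' end of the gene. At the same stage 14 of the 44 members were called lower in RNA, 11 of them with a peak after A-485 (median log2 fold change -1.91) and 3 without (-1.88). Among the rest, 26 had a peak after A-485 (-0.32) and 4 had none (-0.08).

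At Nop2 the DMSO peak (chr6:125131380-125132125) had a fold enrichment of 4.16 over background and the A-485 peak 8.36, and at Nop16 (chr13:54589789-54590434) the values were 6.02 and 11.3, while the RNA of both genes fell. At Tsr1 the DMSO peak (chr11:74897669-74898320) had 5.95. Fold enrichment is set within each list and follows its depth and background, so these values are not a measure of change. The lists also differ in length, with 27693 peaks in DMSO and 13712 with A-485 at the early 2-cell stage. When the 7094 strongest peaks of each list were used, 9 members had one in DMSO early 2-cell embryos and 33 after A-485, where 14.0% and 36.2% of genes did, so the order of the 2 groups depends on the cutoff.

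**Figure D5:**
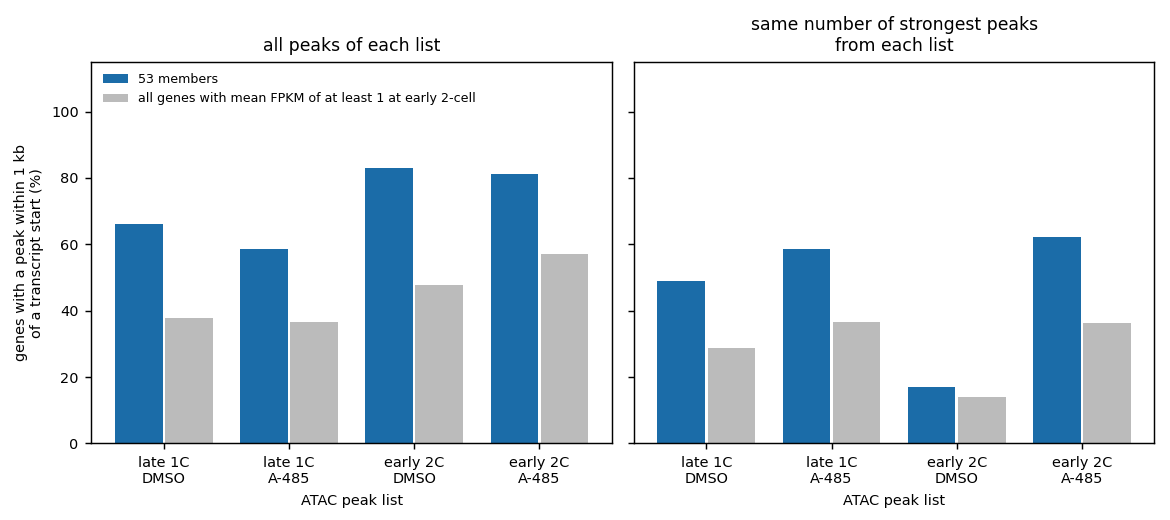
Share of the 53 members and of all 12961 genes expressed at the early 2-cell stage (mean FPKM 1 or more) that had an ATAC peak within 1 kb of a transcript start, in each of the 4 peak lists, with all peaks (left) and with the 7094 strongest peaks of each list (right). With all peaks the members stand at 66%, 58.5%, 83.0% and 81.1%, above the genes as a whole in each list.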

How the data were processed

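Per the study's methods and labels, total RNA-seq libraries were made with the SMART-Seq Stranded Kit, and the authors trimmed reads with Trimmomatic 0.39, mapped them to GRCm38 with STAR 2.7.8a and quantified genes with RSEM 1.3.1. The deposited tables hold expected counts and FPKM for each library. Strand use in the counting is not given in the sources used here, and exons of 20 members overlap a gene on the other strand and of 5 members a gene on the same strand, snoRNA genes among them. RSEM's posterior SD of a member's count was at most 2.24% of the count. The ATAC peak lists, made by the authors with the ENCODE pipeline from 2 replicates, give a score, a fold enrichment (ratio) and a −log10 p-value for each peak, and lines of the same peak were joined.

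Gene identifiers were matched to GENCODE M21 symbols (55144 of 55385). Expected counts were rounded, genes with fewer than 10 counts over the 4 libraries compared were left out, and each comparison was fitted with edgeR 4.0.16 (quasi-likelihood F test, TMM) over all genes with Benjamini-Hochberg adjustment. Interactions used 8 libraries. The background shares are over genes whose mean FPKM reached 1 in one of the groups. Nothing says that the 2 libraries of a group came from separate cultures, so p-values measure the spread between these libraries, which may be technical; no replicate pair agreed within sampling noise (chi-square per degree of freedom at least 9.99). Alternatives were DESeq2 1.42.0, other scalings, no filter, 1 fit over all 16 libraries, other cutoffs, a replicate block, each library left out, and other promoter windows and peak numbers. Scripts were tested on simulated data.

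The members and lists were chosen with earlier results of these data known. Given in full were the most abundant member of each step, the 2 largest called changes for each step and direction in the 4 treatment comparisons, the 3 largest in the 2 stage comparisons and the lowest adjusted p of each other list; Nop10, Wdr12, Nop14, Nip7, Imp3, Tcof1, Mphosph10 and other members named with their changes were singled out after their values were seen. Printed promoters were those of members given in full with a DMSO early 2-cell peak that reached the window, taken by the largest early 2-cell change, up to 2 with and up to 2 without a peak after A-485; 1 without such a peak met this. RefSeq promoters of GRCm38.p6 matched 46 members. H3K27ac samples were not used here.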

Additional observations from a re-analysis of the deposited data

Results flagged for a closer look

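The differences flagged here are those between effects, tested by interaction terms in edgeR over 8 libraries. The A-485 effect was more negative at the late than at the early 2-cell stage in 44 of 53 members, where 14.8% of 16731 genes were. On the log2 scale Noc2l was at -4.91, Bop1 at -3.89, Nob1 at -3.84, Imp3 at -3.77 and Tcof1 at -2.99. Noc2l, Bop1 and Nob1 had little message in DMSO early 2-cell embryos, with mean FPKM of 2.39, 0.845 and 1.5. At the late 2-cell stage the A-485 effect was more negative than the TSA effect in 23 of 53 members, where 18.2% of 18257 genes were. Rrp9 was at -3.33, Bop1 at -3.18, Nhp2 at -3.10, Rrp12 at -2.27 and Nop2 at -2.23. The A-485 effect was less negative in 3 of 53 members, among them Utp4 at 1.18 and Gnl3 at 1.11. That is close to the share over all genes (6.27%), and none passed as less negative with counts scaled to the mitochondrial genome. Bop1 stood among the 5 largest differences in both tests. With 2 libraries in each group no single library could be tested as an outlier.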

How the results depend on the processing

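All treatment counts of members kept within 1.5 times their value under DESeq2, other scalings, no filter, 1 fit over all libraries and other cutoffs. Scaling to mitochondrially encoded genes moved the zygote A-485 median to 0.29, the late 2-cell A-485 median to -3.40, the TSA median to -2.18 and the zygote to early 2-cell median to -2.32, with 44 members lower and 3 higher in the last and Nip7 reversed to -0.32. It also left 39 members more negative with A-485 than with TSA and 0 less negative. The median difference of the A-485 effect between the late and the early 2-cell stage moved to -2.81, where that of all genes was -0.83. Scaling to library totals moved the late 2-cell A-485 median to -2.23, the TSA median to -1.64 and the zygote to early 2-cell median to -1.08. DESeq2 found 6 members less negative with A-485 than with TSA. The 7094 strongest peaks gave 9 members with a peak in DMSO early 2-cell embryos. The cause of these moves was not tested. Leaving out single libraries, the late 2-cell A-485 median ran from -2.61 to -2.34 and the early to late 2-cell median from 2.01 to 2.13. The number of members more negative with A-485 than with TSA then ran from 18 to 25.

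Of 2361 values of single called members under the alternatives, 2331 kept direction and call, 29 kept the direction but lost the call and 1 reversed. Using the 5' end of each gene in place of any transcript start, chosen after seeing the data, gave 34, 30, 43 and 42 members with a peak. Same-numbered replicates did not deviate together (correlations of -0.0252 to 0.0260, with 2 pairs), and a replicate block gave 15, 51 and 51 members lower after A-485 at the early and late 2-cell stages and after TSA, and 46 in place of 44 in the interaction of stage. With 2 libraries a group, low messages such as Nle1 and Bop1 at the early 2-cell stage carry wide errors.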
